A study of Mus musculus with 3 samples.

Results

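Cyclin-dependent kinase (CDK) inhibitor genes were examined in mouse embryonic stem (ES) cells with and without Pcgf1. The genes were chosen by name as Cdkn1a, Cdkn1b, Cdkn2a, Cdkn2b, Cdkn2c, Cdkn2d and Cdkn3. Of these 7 genes, 6 had a value under their own name in all 3 samples, among 25346 genes with such a value in all. Cdkn2d was joined with a neighbouring gene in 2 of the samples and is described apart. RNA-seq was performed on 3 samples of C57BL/6 ES cells, 1 per group, all grown in serum and leukemia inhibitory factor on feeder fibroblasts that mitomycin-C had inactivated. The groups were wild type (WT), Pcgf1-/- (labelled Pcgf1KO, a picked clone in which Cas9 and a pair of sgRNAs had cut at exons 2 and 3 of Pcgf1), and Pcgf1-/-+Pcgf1 (labelled Pcgf1KO+ Pcgf1_flag, the knockout cells given Flag-tagged Pcgf1 by lentivirus and selected with puromycin). No group has a replicate, so no difference between groups has a replicate check, no p-value is given, and clone, infection and library cannot be told apart from the genotype.

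CDK inhibitors restrain the kinases that drive the cell through G1 into S phase. The CIP/KIP proteins p21 (Cdkn1a) and p27 (Cdkn1b) bind complexes of CDK2 with cyclin E or A, whereas the INK4 proteins p16Ink4a (Cdkn2a), p15 (Cdkn2b), p18 (Cdkn2c) and p19Ink4d (Cdkn2d) bind CDK4 and CDK6 and keep cyclin D from them. Cdkn2a also encodes p19Arf, which is read in another frame, is unrelated to INK4 proteins and protects p53 by binding Mdm2, and Cdkn3 encodes a phosphatase that acts on CDK2. The locus of Cdkn2a and Cdkn2b is a classic target of Polycomb repression through Bmi1, a relative of Pcgf1, and Pcgf1 itself is the core of a variant Polycomb complex that is brought to unmethylated CpG islands by Kdm2b.

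Cdkn2a is the gene on which the results below turn, and its 2 promoters and that of Cdkn2b are shown because they share a locus but not their signal. In mm10, Cdkn2a (ENSMUSG00000044303) spans chr4:89274471-89294653 and Cdkn2b (ENSMUSG00000073802) chr4:89306299-89311039, both on the minus strand. The RefSeq promoter windows (GRCm38, 250 bases before and 50 after a start) are written 5′ to 3′ on the minus strand with every CpG in capitals. The p19Arf window is chr4:89294570-89294869, the p16Ink4a window chr4:89282143-89282442 and the Cdkn2b window chr4:89310983-89311282.
Cdkn2a, p19Arf promoter: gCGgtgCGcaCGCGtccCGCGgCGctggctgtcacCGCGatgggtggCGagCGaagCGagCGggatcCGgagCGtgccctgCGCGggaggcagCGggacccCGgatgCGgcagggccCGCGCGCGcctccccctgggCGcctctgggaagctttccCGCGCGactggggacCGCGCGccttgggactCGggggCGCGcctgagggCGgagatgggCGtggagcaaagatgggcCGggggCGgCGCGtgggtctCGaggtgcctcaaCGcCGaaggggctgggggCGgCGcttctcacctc
Cdkn2a, p16Ink4a promoter: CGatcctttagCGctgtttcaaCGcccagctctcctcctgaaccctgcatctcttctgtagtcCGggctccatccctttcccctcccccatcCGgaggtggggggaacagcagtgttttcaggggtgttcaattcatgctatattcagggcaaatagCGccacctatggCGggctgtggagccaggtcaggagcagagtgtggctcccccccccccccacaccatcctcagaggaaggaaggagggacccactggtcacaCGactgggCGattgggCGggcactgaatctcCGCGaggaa
Cdkn2b promoter: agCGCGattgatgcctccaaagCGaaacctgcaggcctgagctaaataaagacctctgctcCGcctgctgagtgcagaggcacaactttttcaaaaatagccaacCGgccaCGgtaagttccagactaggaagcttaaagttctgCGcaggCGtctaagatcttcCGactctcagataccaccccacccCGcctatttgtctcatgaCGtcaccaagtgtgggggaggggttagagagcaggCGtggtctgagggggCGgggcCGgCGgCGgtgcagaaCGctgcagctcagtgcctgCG
The p19Arf window held 45 CpG, more than 98.1% of the 32851 promoter windows of the table, whose median was 7. The Cdkn2b window held 18 CpG (70.3% of windows had fewer) and the p16Ink4a window held 12 (60.4% had fewer). The GC box GGGCGG, searched on both strands, was in all 3 windows and in 35.7% of all windows. The TATA box letters TATAAA (in 13.6% of all windows) and the E2F motif letters TTTCGCGC (0.323%) and TTTGGCGC (0.514%) were in none of the 3. These matches describe the letters of the windows alone.

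Values are FPKM, fragments scaled to transcript length and to the mapped fragments of the library, so that levels can be compared between genes. For each gene the larger of the summed FPKM of its first-exon rows and of its last-exon rows was used. Ratios were taken after adding 0.1 FPKM, which understates changes of low genes, and a gene past 2-fold is called higher or lower without a test. The lowest values lie on steps. The first step, taken as 1 fragment, stood at 0.0517, 0.0484 and 0.0498 for FPKM times transcript length in kilobases in WT, Pcgf1-/- and Pcgf1-/-+Pcgf1, so 1 fragment was worth about the same in the 3 libraries. The numbers of fragments given below are such estimates, with the whole transcript length assumed.

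Pcgf1 (chr6:83077869-83080855), the targeted gene, was at 13.95 FPKM in WT cells, 5.88 in Pcgf1-/- cells and 7.86 in Pcgf1-/-+Pcgf1 cells. In Pcgf1-/- all of the 5.88 FPKM lay on rows that skip both targeted exons (83078895 to 83079268), and the row that includes them was at 0. No such skipping was listed in WT or in Pcgf1-/-+Pcgf1. The rescued cells were made from the knockout cells, so the missing row does not show that their own locus holds these exons. Transcripts of the added Pcgf1 and of their own locus cannot be told apart in the 7.86 FPKM. Of the ES cell genes, Pou5f1 was at 670, 518 and 626 FPKM and Nanog at 68.2, 46.3 and 123 FPKM in WT, Pcgf1-/- and Pcgf1-/-+Pcgf1. Others were low, such as Klf4 at 2.62, 1.19 and 8.07 FPKM and Tcl1 at 9.11, 4.50 and 31.5 FPKM. Of 30 measured fibroblast markers, which the feeders would bring, 7 were lower and 1 higher in Pcgf1-/- than in WT. Among all genes 4.98% were lower and 2.16% higher. The summed FPKM of the 30 markers was 486, 461 and 444. Postn was at 0 in all 3 samples, and Col1a1 was at 1.88, 0.390 and 2.21 FPKM.

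Cdkn2a was higher in Pcgf1-/- than in WT and fell below WT in Pcgf1-/-+Pcgf1. Cdkn1b was level between WT and Pcgf1-/- and lower in Pcgf1-/-+Pcgf1. Cdkn1a and Cdkn3 stayed within 2-fold in every comparison, Cdkn2c was near the floor, and Cdkn2b was listed at 0. In WT the order of levels was Cdkn1a, Cdkn2a, Cdkn1b, Cdkn3, Cdkn2c and Cdkn2b, in Pcgf1-/- Cdkn2a came first, and in Pcgf1-/-+Pcgf1 the order was Cdkn1a, Cdkn3, Cdkn2a, Cdkn1b, Cdkn2c and Cdkn2b. With 1 sample per group the spread behind a level is unknown, so close neighbours in that order, such as Cdkn3 (6.95 FPKM) and Cdkn2a (6.30 FPKM) in Pcgf1-/-+Pcgf1, are not shown to differ.

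**Figure D1:**
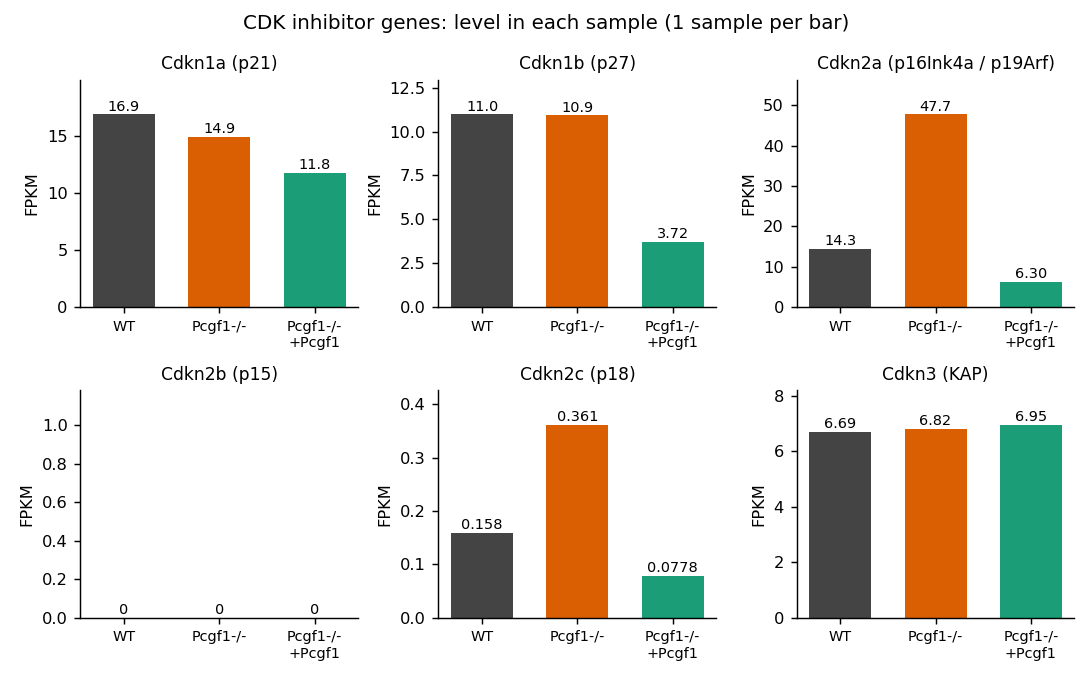
FPKM (y axis, linear, starting at 0, a separate scale in each panel) of the 6 CDK inhibitor genes in the 3 samples, 1 sample per bar and no error bar. Cdkn2a stood at 14.3, 47.7 and 6.30 FPKM, Cdkn1b dropped to 3.72 FPKM in Pcgf1-/-+Pcgf1, Cdkn3 stayed between 6.69 and 6.95 FPKM, and the panel of Cdkn2b is empty because it was listed at 0.

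Among the INK4 genes, Cdkn2a stood at 14.3 FPKM in WT cells, 47.7 in Pcgf1-/- cells and 6.30 in Pcgf1-/-+Pcgf1 cells, which correspond to about 248, 882 and 113 fragments. The knockout sample was the highest and the rescued sample the lowest. Knockout over WT gave a log2 ratio of 1.73 (3.32-fold higher), rescue over knockout -2.90 (7.46-fold lower) and rescue over WT -1.17 (2.25-fold lower). When genes under 1 FPKM in both samples compared were left out, Cdkn2a was the 95th most increased of 9438 in Pcgf1-/- over WT. It was the 48th most decreased of 9565 in Pcgf1-/-+Pcgf1 over Pcgf1-/-, a comparison that shares the knockout library with the first. Fibroblasts can express Cdkn2a. The summed fibroblast markers were at 486 FPKM in WT and 461 in Pcgf1-/-. The largest parts of that sum were Sparc (227 and 266 FPKM) and Fn1 (110 and 75.7 FPKM). Of the 30 markers, 7 were lower and 1 higher in Pcgf1-/-, beside 4.98% and 2.16% of all genes, with a median log2 ratio of -0.49. A part of feeder cells in the Cdkn2a level was not tested. In RNA from whole cultures, a larger share of cells that express a gene and more RNA per cell cannot be told apart.

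All of the Cdkn2a signal was listed at the first exon of p19Arf. The gene has 2 annotated first exons whose starts lie 12.461 kb apart. The upstream one, chr4:89294334-89294653 (320 bases), belongs to the transcript Cdkn2a-202, which codes for the 169 residues of p19Arf, and the downstream one, chr4:89281986-89282192 (207 bases), belongs to Cdkn2a-201, which codes for the 168 residues of p16Ink4a. The row of the upstream first exon carried the full 14.3, 47.7 and 6.30 FPKM. The row of the p16Ink4a first exon was listed at 0 in all 3 samples. Both transcripts share the last-exon row (chr4:89274471-89274774), which had the same values as the upstream first exon. In the annotation, exon 2 is entered in different frames, with 2 bases before its first whole codon in the p19Arf transcript and 0 in the p16Ink4a transcript. The promoter window with 45 CpG printed above is thus the one whose first exon carried signal, and the windows with 12 and 18 CpG lie at first exons listed at 0. Among the other genes, Cdkn1b (30 CpG) and Cdkn3 (25 CpG) had signal. Cdkn2d (22 CpG) had no signal listed at its own exon ends, with the limits described below, and Cdkn2c (windows of 33 and 8 CpG) was near the floor. A link between CpG content and signal was not tested.

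Cdkn2b, the p15 gene, starts 16.386 kb upstream of the p19Arf first exon on the same strand. Its first-exon row (chr4:89310666-89311032) and last-exon row were listed at 0 in every sample, so no fold is given. One fragment would have been worth 0.0372, 0.0348 and 0.0358 FPKM of its transcript in WT, Pcgf1-/- and Pcgf1-/-+Pcgf1. An exact 0 in lists of assembled transcripts can also be an estimate that failed, and 57 genes of the series were above 5 FPKM in 1 sample and listed at 0 in another. The 0 of the p16Ink4a first exon has the same limit.

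**Figure D2:**
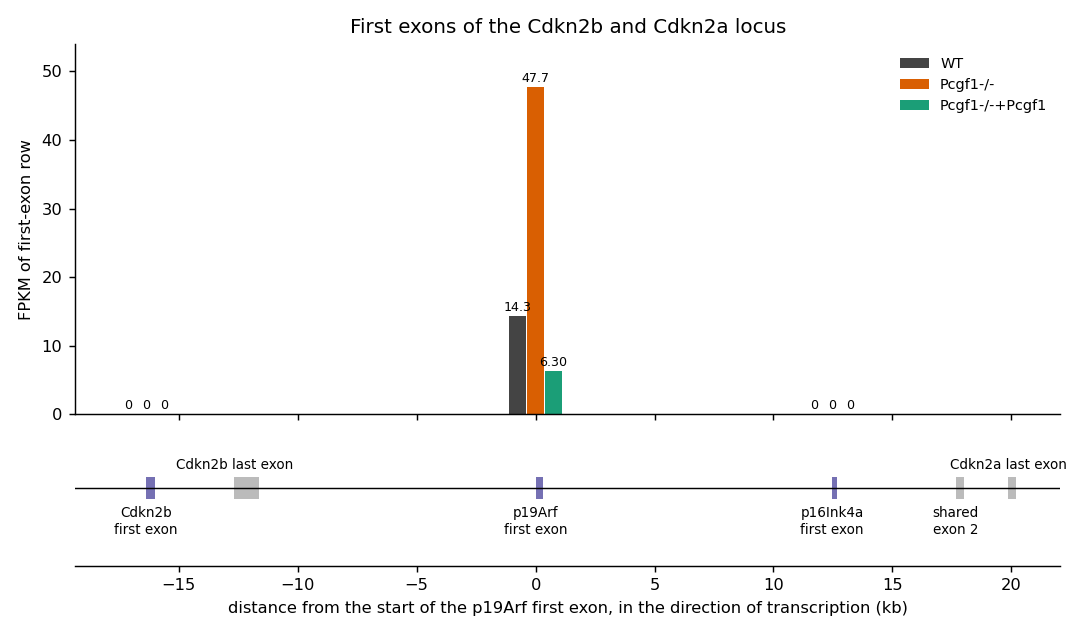
FPKM of the first-exon rows at the Cdkn2b and Cdkn2a locus (top, y axis linear, 1 bar per sample set side by side at each first exon) over a map of the exons drawn to scale (bottom), with distance in kb from the start of the p19Arf first exon along the direction of transcription. Bars stand at the p19Arf first exon alone, at 14.3, 47.7 and 6.30 FPKM, and the first exons of Cdkn2b and p16Ink4a are at 0 in the 3 samples.

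Cdkn2c, the p18 gene (ENSMUSG00000028551, chr4:109660876-109667189, minus strand), was at 0.158 FPKM in WT cells, 0.361 in Pcgf1-/- cells and 0.0778 in Pcgf1-/-+Pcgf1 cells. These levels rest on about 8, 18 and 4 fragments of the transcript Cdkn2c-202. The order of the samples was that of Cdkn2a, with the knockout highest and the rescue lowest. The log2 ratios were 0.84 for Pcgf1-/- to WT, -1.37 for Pcgf1-/-+Pcgf1 to Pcgf1-/- and -0.54 for Pcgf1-/-+Pcgf1 to WT, and a pseudocount of 1 FPKM brought the second to -0.34. Whether the few fragments differ between the cultures was not detectable at this depth.

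Cdkn2d, the p19Ink4d gene (ENSMUSG00000096472, chr9:21288410-21291407, minus strand), could not be read as the other genes were. In WT and Pcgf1-/- it was joined in 1 locus with Ap1m2, a subunit gene of a clathrin adaptor, which lies just upstream on the same strand. The first-exon row of the joined locus, at the start of Ap1m2, had 36.0 FPKM in WT and 40.8 in Pcgf1-/-, and the last-exon row, at the last exon of Cdkn2d, was at 0 in both. In Pcgf1-/-+Pcgf1 the genes were listed apart, Cdkn2d at 0 for its first and its last exon and Ap1m2 at 24.4 FPKM. No sample thus listed signal at an exon end that belongs to Cdkn2d, and the joined value is not counted as its level. In WT and Pcgf1-/- the first exon of Cdkn2d had no row of its own, so its start was not read there. The 0 of its listed rows can be an estimate that failed, as stated for Cdkn2b.

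Among the CIP/KIP genes, Cdkn1b, the p27 gene (ENSMUSG00000003031, chr6:134920401-134925513, plus strand), was at 10.98 FPKM in WT cells, 10.92 in Pcgf1-/- cells and 3.72 in Pcgf1-/-+Pcgf1 cells, about 509, 540 and 179 fragments. WT and knockout lay together and the rescued sample alone was low. The log2 ratio was -0.01 for Pcgf1-/- to WT, -1.53 for Pcgf1-/-+Pcgf1 to Pcgf1-/- (2.88-fold lower) and -1.53 for Pcgf1-/-+Pcgf1 to WT (2.90-fold lower). Cdkn1b was the 129th most decreased of 9565 genes against the knockout and the 98th most decreased of 9620 against WT. The pattern held at both ends of the gene, with last-exon sums of 9.71, 9.85 and 3.10 FPKM. The assembled ends differed, however. WT had an additional first-exon row of 149 bases at 1.27 FPKM, beside the 994-base first exon at 9.71 FPKM that the other samples listed alone with signal. The last-exon row of Pcgf1-/- was 35 bases long against 1271 bases in WT and Pcgf1-/-+Pcgf1.

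Cdkn1a, the p21 gene and a standard p53 target (ENSMUSG00000023067, chr17:29090976-29100727, plus strand), was at 16.9 FPKM in WT cells, 14.9 in Pcgf1-/- cells and 11.8 in Pcgf1-/-+Pcgf1 cells. No pair of samples differed 2-fold, and the log2 ratios were -0.18 for Pcgf1-/- to WT, -0.34 for Pcgf1-/-+Pcgf1 to Pcgf1-/- and -0.52 for Pcgf1-/-+Pcgf1 to WT. The whole signal came from the first exon chr17:29093772-29093861 (Cdkn1a-201). The first exons of Cdkn1a-202 (chr17:29090979-29091101) and of Cdkn1a-203 (chr17:29098207-29098837) were listed at 0 in all 3 samples. The promoter window of the exon with signal held 23 CpG and that of the upstream exon 2. A short annotated transcript on the minus strand, AC167363.2, overlaps the exon with signal, and the sources used here do not say that the FPKM took strand into account.

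Cdkn1c, the p57 gene and the remaining CIP/KIP gene, is not among the 7 genes and is given for comparison. It was at 52.8, 34.5 and 56.0 FPKM in WT, Pcgf1-/- and Pcgf1-/-+Pcgf1, with log2 ratios of -0.61, 0.69 and 0.08 for the same 3 comparisons. It was thus lowest in the knockout, where Cdkn2a was highest, within 2-fold.

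Cdkn3, the phosphatase gene (ENSMUSG00000037628, chr14:46760541-46771669, plus strand), had the flattest profile of the genes above 0 on first-exon rows, with 6.69, 6.82 and 6.95 FPKM in WT, Pcgf1-/- and Pcgf1-/-+Pcgf1, about 119, 129 and 128 fragments. The log2 ratios were 0.03, 0.03 and 0.05 in the 3 comparisons. On last-exon rows the knockout stood apart, with 6.69 FPKM in WT cells, 1.98 in Pcgf1-/- cells and 6.95 in Pcgf1-/-+Pcgf1 cells. Read from last exons alone, the log2 ratio was -1.71 for knockout over WT and 1.76 for rescue over knockout. Cdkn3 and Cdkn1b were the members whose first-exon and last-exon sums differed, against 4 of the 6 with equal sums in every sample and 19679 of the 25346 genes of the series.

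Counted together, 1 of the 6 measured CDK inhibitor genes was over 2-fold higher in Pcgf1-/- than in WT, Cdkn2a, beside 2.16% of all genes, and 0 were lower, beside 4.98%. The Cdkn2a signal counted here and below lay at the first exon of p19Arf, which is not an INK4 protein. The p16Ink4a first exon was listed at 0. Among genes of at least 1 FPKM it was 1 of 4 higher, beside 2.98%, and 0 lower, beside 6.11%. In Pcgf1-/-+Pcgf1 over Pcgf1-/-, 3 of 6 were lower (Cdkn1b, Cdkn2a and Cdkn2c), beside 2.22% of all genes, and 0 were higher, beside 6.35%. With at least 1 FPKM, 2 of 4 were lower, beside 3.6%, and 0 higher, beside 7.23%. In Pcgf1-/-+Pcgf1 over WT, 2 of 6 were lower (Cdkn1b and Cdkn2a), beside 2.36%, and 0 were higher, beside 3.99%, and with at least 1 FPKM 2 of 4 were lower, beside 2.65%, and 0 higher, beside 3.84%. The 5 genes above 0 had median log2 ratios of 0.03, -1.37 and -0.54 in these comparisons, and all genes above 0 had -0.12, 0.05 and -0.07. The medians of -1.37 and -0.54 are the values of Cdkn2c itself, which rests on about 8, 18 and 4 fragments. The other genes above 0 had log2 ratios of -0.34 (Cdkn1a), -1.53 (Cdkn1b), -2.90 (Cdkn2a) and 0.03 (Cdkn3) in Pcgf1-/-+Pcgf1 over Pcgf1-/-. Against WT they had -0.52, -1.53, -1.17 and 0.05. A shift of the genes as a group was not tested. The 3 comparisons share samples in pairs, so a low rescue sample enters both of the last 2. Median-of-ratios scaling would move the log2 ratio of Pcgf1-/- to WT up by 0.11 for genes well above the pseudocount, which turned the sign of the -0.01 of Cdkn1b and of no CDK inhibitor gene past 2-fold.

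**Figure D3:**
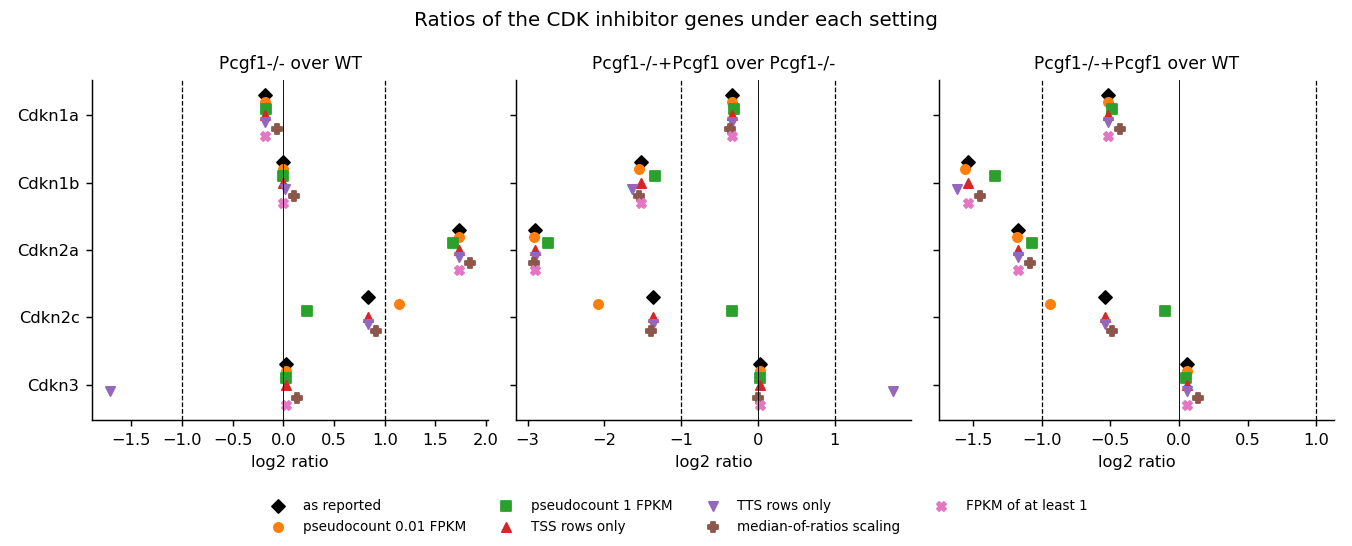
Log2 ratio (x axis) of each CDK inhibitor gene above 0 in the 3 comparisons under each setting, with dashed lines at 2-fold and 1 point per setting. Cdkn2a and Cdkn1b keep their places, with Cdkn2a between 1.67 and 1.84 for Pcgf1-/- over WT, whereas Cdkn3 leaves its place when last-exon (TTS) rows alone are read and Cdkn2c, which has no point for an FPKM of at least 1, moves with the pseudocount.

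The partners of the inhibitors stayed within 2-fold. None of the 11 measured cyclin and CDK genes passed 2-fold in any of the 3 comparisons, with median log2 ratios of -0.06, -0.12 and -0.02. The shares of all genes that were higher and lower were 2.16% and 4.98%, 6.35% and 2.22%, and 3.99% and 2.36% in the 3 comparisons. The targets of INK4 proteins, Cdk4 and Cdk6, were at 171, 155 and 206 FPKM and at 2.88, 4.10 and 2.80 FPKM in WT, Pcgf1-/- and Pcgf1-/-+Pcgf1. Cdk2, which p21 and p27 bind, was at 32.5, 31.2 and 28.7 FPKM, with its cyclins Ccne1 at 96.3, 92.5 and 89.1 and Ccna2 at 82.0, 76.6 and 73.7 FPKM. Among the D cyclins, Ccnd3 was at 116 FPKM in WT cells, 217 in Pcgf1-/- cells and 118 in Pcgf1-/-+Pcgf1 cells (log2 0.90 for Pcgf1-/- to WT). Ccnd1 was at 38.9, 38.2 and 38.3 FPKM, and Ccnd2 was below 1 FPKM throughout.

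Downstream of the kinases, beside 4.98% of all genes lower and 2.16% higher, 1 of 11 measured RB and E2F genes passed 2-fold in Pcgf1-/- over WT. This was Rbl2, the gene of the RB relative p130, at 1.43 FPKM in WT, listed at 0 in Pcgf1-/- and at 0.695 in Pcgf1-/-+Pcgf1, where it was higher than in the knockout. Both differences of Rbl2 rest on that exact 0, which can be an estimate that failed, as stated for Cdkn2b. Rb1 was at 3.02, 1.92 and 2.63 FPKM. Of the genes for turnover of p27 and p21, 0 of 8 measured passed 2-fold in any comparison, and Skp2, which recognises p27 for degradation, was at 24.0, 22.2 and 20.9 FPKM. A part of these genes in the low Cdkn1b mRNA of the rescued sample was not tested. Protein was not measured.

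The p53 pathway is the one that p19Arf acts on. Trp53 was at 315, 264 and 345 FPKM in WT, Pcgf1-/- and Pcgf1-/-+Pcgf1, and Mdm2, both a target of p53 and its ubiquitin ligase, was at 23.1, 26.01 and 18.6 FPKM. The 21 measured genes of p53 and its targets had a median log2 ratio of -0.13 for Pcgf1-/- to WT. Of them, 2 were higher and 0 lower, beside 2.16% and 4.98% of all genes. The first was Perp, a gene of cell death and adhesion, at 17.0 FPKM in WT cells, 43.7 in Pcgf1-/- cells and 14.0 in Pcgf1-/-+Pcgf1 cells. The other was Fas, a death receptor gene, at 0.255 FPKM in Pcgf1-/- and listed at 0 in the other samples. Fas was below 1 FPKM in every sample, so its fold depends on the added 0.1 FPKM. Both genes were lower in Pcgf1-/-+Pcgf1 than in Pcgf1-/-, and 0 of the 21 were higher, beside 2.22% of all genes lower and 6.35% higher. None of the 21 passed 2-fold in Pcgf1-/-+Pcgf1 over WT, beside 3.99% of all genes higher and 2.36% lower, and the median there was -0.31.

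Polycomb genes known for the Ink4/Arf locus were mostly within 2-fold. In Pcgf1-/- over WT, 1 of 18 measured was lower and 0 higher, beside 4.98% and 2.16% of all genes. Phc1, a subunit gene of the canonical complex, was at 197 FPKM in WT cells, 94.4 in Pcgf1-/- cells and 161 in Pcgf1-/-+Pcgf1 cells. Bmi1, the best known repressor of Cdkn2a, was at 0.602, 0.761 and 0.669 FPKM. In Pcgf1-/-+Pcgf1, Bcor, a scaffold gene of the Pcgf1 complex, was at 9.49 FPKM against 4.06 in WT and 5.33 in Pcgf1-/-, and Rybp, a subunit gene of variant complexes, was at 12.6 FPKM against 30.3 and 40.3. Cbx8, a chromodomain subunit gene, was at 0.270 FPKM against 0.702 and 0.945. Relative to the knockout, 1 gene of the list was higher (Kdm6b, an H3K27 demethylase gene) and 2 were lower (Rybp and Cbx8). Among all genes 6.35% were higher and 2.22% lower.

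Of regulators of CDK inhibitor transcription, 4 of 20 measured were higher and 1 was lower in Pcgf1-/- than in WT, beside 2.16% and 4.98% of all genes, with a median log2 ratio of 0.01. In Pcgf1-/-+Pcgf1, 2 were higher and 2 lower than in Pcgf1-/-, beside 6.35% and 2.22% of all genes. Against WT, 3 were higher and 1 lower, beside 3.99% and 2.36%. Id1, whose protein inhibits E2A-type factors, was at 85.1 FPKM in WT cells, 423 in Pcgf1-/- cells and 95.04 in Pcgf1-/-+Pcgf1 cells. Myc, an oncogene that represses several CDK inhibitor genes, was at 30.3, 65.5 and 23.2 FPKM, so that Id1 and Myc had their highest value in the sample where Cdkn2a did. Id3 was at 12.7, 35.9 and 31.0 FPKM and Tbx3, a repressor of Cdkn2a, at 0.233, 1.43 and 3.61 FPKM, so that in the rescued sample Id3 stayed within 2-fold of the knockout and Tbx3 was higher still. Klf4, an activator of Cdkn1a and a pluripotency factor, was the gene that was lower, at 2.62, 1.19 and 8.07 FPKM.

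**Figure D4:**
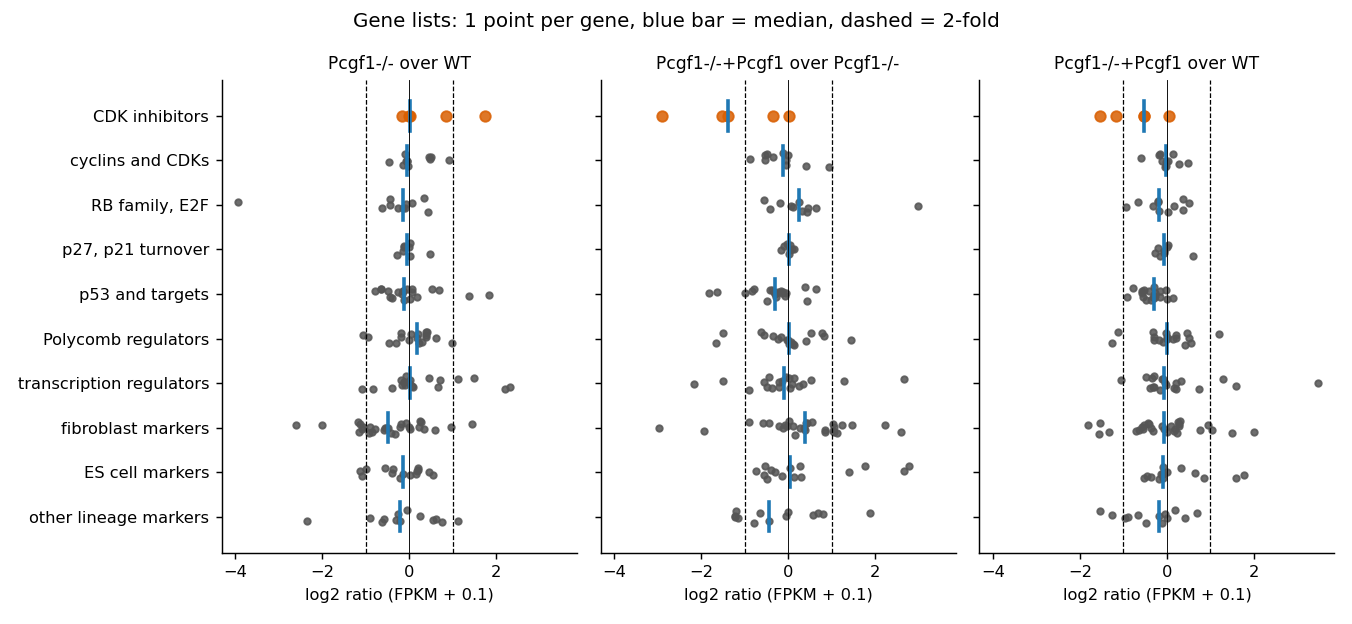
Log2 ratio of FPKM plus 0.1 (x axis) of each gene of 10 lists in the 3 comparisons, 1 point per gene above 0 in at least 1 of the 3 samples. The blue bar is the median of the plotted genes, and dashed lines stand at 2-fold. CDK inhibitor genes (orange) reach 1.73 in Pcgf1-/- over WT and -2.90 in Pcgf1-/-+Pcgf1 over Pcgf1-/-, cyclins and CDKs stay within 2-fold, and fibroblast markers have a median of -0.49 in Pcgf1-/- over WT.

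Markers of the cells in the cultures moved with these comparisons as follows. Of 30 fibroblast markers, 9 were higher and 2 lower in Pcgf1-/-+Pcgf1 than in Pcgf1-/-, beside 6.35% and 2.22% of all genes. Against WT, 3 were higher and 4 lower in Pcgf1-/-+Pcgf1, beside 3.99% and 2.36%. The median log2 ratios of these markers were -0.49, 0.39 and -0.08 over the 3 comparisons. Thy1 was at 14.2, 6.39 and 13.5 FPKM and Col1a2 at 0.635, 0.0213 and 0.148 FPKM. Of 15 measured ES cell markers, 3 were lower in Pcgf1-/- than in WT (Klf4, Dppa3 and Tcl1) and 0 higher, beside 4.98% and 2.16% of all genes. In Pcgf1-/-+Pcgf1, 4 of the 15 were higher (Nanog, Klf4, Dppa3 and Tcl1) and 0 lower than in Pcgf1-/-, beside 6.35% and 2.22% of all genes. Against WT, 2 were higher and 0 lower, beside 3.99% and 2.36%. The summed FPKM of the 15 markers, which a few genes of high level dominate, was 2879, 2888 and 2530 in WT, Pcgf1-/- and Pcgf1-/-+Pcgf1. Beside 2.16% and 4.98% of all genes, 1 of 14 measured markers of other lineages was higher (Gata6) and 1 lower (Otx2) in Pcgf1-/- than in WT. In Pcgf1-/-+Pcgf1, 1 of these 14 markers was higher and 4 lower than in Pcgf1-/-, beside 6.35% and 2.22% of all genes. Against WT, 0 of the 14 markers were higher and 2 lower, beside 3.99% and 2.36%. Their summed FPKM was 139, 125 and 57.8, the fall in Pcgf1-/-+Pcgf1 being mostly that of Krt8 (68.9, 66.3 and 28.9 FPKM) and Krt18 (61.1, 49.1 and 20.97 FPKM), while Afp was at 0 in all 3. Their part in the levels of Cdkn1b and Cdkn2a was not tested.

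The genes nearest in profile to each CDK inhibitor gene were found by the distance of their 2 log2 ratios to WT, over 3 samples and among 8623 genes with at least 1 FPKM in every sample. Nearest to Cdkn2a were Pcbp3 (18.3, 64.2 and 11.6 FPKM, distance 0.526) and Cds2 (16.9, 38.6 and 8.71 FPKM, 0.587). Nearest to Cdkn1b were Ctsb (50.8, 45.7 and 16.3 FPKM, 0.174), Nova2 (11.4, 11.6 and 4.40 FPKM, 0.180) and 2410018L13Rik (4.23, 3.74 and 1.47 FPKM, 0.181). Distances were far smaller for the level genes, whose profile many genes have. Those of Cdkn1a (Hps3, Elmo2 and Zfp867) reached 0.0146 and those of Cdkn3 (Atg7, Cggbp1 and Gmppa) reached 0.0063. Pcbp3 and Cds2 thus stood further from Cdkn2a than the named neighbours of the other 3 genes did from theirs.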

How the data were processed

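Poly-A RNA of 3 mouse ES cell samples was sequenced with paired-end reads, which the authors aligned with TopHat. They deposited 1 event list per sample (first exon, TSS; last exon, TTS; skipped or alternative exons), in which the authors give each event the FPKM of the transcripts that hold it. The submitters' processing notes name TopHat2 2.0.12, Cufflinks 2.2.1, HTSeq 0.6.0 and mm10, and the program that wrote the lists is not given in the sources used here. The files analysed hold no counts and do not give total depth, so depth enters here only through the estimated worth of 1 fragment.

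For each single gene name, the FPKM of TSS rows and of TTS rows were added up and the larger of both totals was kept, and names joined by commas were kept apart. Ratios used FPKM plus 0.1 with a limit of 2-fold, and no test was possible with 1 sample per group. Exons were matched by position to GENCODE vM21 (GRCm38) and promoters were taken from RefSeq. A protein comparison planned for the genes was not run. Median-of-ratios scaling, pseudocounts, TSS or TTS rows alone and an FPKM of at least 1 were tried as alternatives. First steps of FPKM times length were read between 0.03 and 0.07 in genes with 1 transcript of at least 2000 bases. The genes and lists were chosen with earlier results of these data known. Named beside the 7 genes were list genes past 2-fold in Pcgf1-/- over WT with at least 1 FPKM (up to 4 per direction and list), a set of partner and marker genes, and the 3 nearest genes of each member at 1 FPKM or more in every sample. One gene that this rule names is not reported here. Fas, Bcor, Rybp, Cbx8, Kdm6b, Gata6, Krt8, Krt18, Postn and Afp were named after their values were seen. Python 3.11.15, numpy 2.4.6, pandas 2.3.3 and matplotlib 3.10.9 were used.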

Additional observations from a re-analysis of the deposited data

Results flagged for a closer look

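Cdkn3 had rows of an alternative exon end in Pcgf1-/-+Pcgf1 that no comparison above uses and that were not listed for WT or Pcgf1-/-. An exon of 83 bases (chr14:46762528-46762610), which is annotated, was at 5.81 FPKM. A longer form of 102 bases (chr14:46762528-46762629), which no annotated transcript holds, was at 1.15 FPKM. Together they make up the level of the gene in that sample, and there is no replicate.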

How the results depend on the processing

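No paired analysis was possible because each group has 1 sample. The count of CDK inhibitor genes past 2-fold in Pcgf1-/- over WT was 1 and rose to 2 with a pseudocount of 0.01 FPKM (Cdkn2c, log2 1.14, joined Cdkn2a) and to 2 with TTS rows alone (Cdkn3, log2 -1.71 against 0.03, joined as lower). In Pcgf1-/-+Pcgf1 over Pcgf1-/-, Cdkn3 came to 1.76 with TTS rows alone and Cdkn2c to -0.34 with a pseudocount of 1 FPKM. The other 83 of 87 single-gene values stayed on their side of the limit. Among these the log2 ratio of Cdkn1b for Pcgf1-/- over WT, -0.01, changed sign, to 0.02 with TTS rows alone and to 0.10 with median-of-ratios scaling. Cdkn2a was at 1.67 to 1.84, -2.92 to -2.74 and -1.18 to -1.07 in the 3 comparisons. Over all genes, 1810, 2173 and 1608 were past 2-fold, against 3267, 3656 and 3002 with a pseudocount of 0.01 FPKM, 454, 585 and 329 with 1 FPKM, and 858, 1036 and 624 among genes of at least 1 FPKM. Depth limits Cdkn2c, which rests on a few fragments, and the genes listed at 0.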
